A study of Mus musculus with 16 samples.

Results

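Muribaculaceae and Tannerellaceae are the bacterial families to which nearly all Bacteroidota reads of these mouse stool samples belong. Every amplicon sequence variant (ASV, an exact 16S rRNA gene sequence that stands for 1 kind of bacterium) whose assigned family was Muribaculaceae or Tannerellaceae was taken, which gave 9 of the 1330 ASVs in the table. The 9 ASVs held 388336 of 948231 reads, or 41.0%. Muribaculaceae contributed 3 ASVs and Tannerellaceae 6. Within these families the ASVs were chosen by taxonomy alone, not by their read counts. The families themselves were chosen with earlier results of these data known.

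The study profiled the V3 to V4 region of the 16S rRNA gene in stool of wild-type (WT) mice and of mice with a knock-out of Msc (KO), the gene for the transcription factor musculin. There were 4 groups of 4 libraries: WT healthy and KO healthy at time point 0, and WT and KO with colitis induced by dextran sulfate sodium (DSS) at time point 1. DSS is a polymer that injures the colon lining when given to mice. All DSS samples came from the later time point, so DSS and time cannot be told apart. The kind of knock-out allele, strain, age, sex and cage of the mice were not given in the sources used here. A difference between genotypes can therefore not be told apart from a difference in age, sex or cage. The labels number the samples 0 to 3 in each group but do not say that a number is 1 animal or that samples came from separate cages. The p-values therefore measure only the spread between these samples.

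Muribaculaceae, formerly called S24-7, is a family of anaerobic gut bacteria that is among the most abundant in laboratory mice and is known for breaking down complex carbohydrates, both plant polysaccharides and glycans of the host's mucus. Parabacteroides, the genus of Tannerellaceae that carries almost all of its reads here, is another group of anaerobes of the mammalian gut that ferments carbohydrates to short-chain fatty acids. Both families belong to the order Bacteroidales, and gut communities are often described by the balance between Bacteroidota and Firmicutes.

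Libraries held 49253 to 70577 reads, so the 95% Wilson interval of a family's share in 1 library reached at most 0.412 percentage points to either side. These intervals cover counting error only, because amplified reads are not independent molecules. One library stood apart: WT DSS replicate 1 held 844 ASVs, 711 of them found in no other library, and these made up 17.1% of its reads. Without it, the WT DSS means over the other 3 libraries were 15.6% of reads for Muribaculaceae, 27.3% for Tannerellaceae and 48.1% for Firmicutes, with a mean log2 ratio of the families of -0.79. The fold changes of the families without it stand beside each comparison that uses WT DSS. Total bacterial load was not measured, so all values are shares or ratios of reads, and a rise of 1 family cannot be told apart from a fall of the rest. The number of 16S gene copies per cell was not corrected for, so a ratio of reads is not a ratio of cells.

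Within the families, 3 ASVs were found in all 16 libraries and held 99.984% of the members' reads. In Muribaculaceae these were asv1, with 172680 reads or 76.4% of the family, and asv3, with 53385 reads or 23.6%. Neither has a species name: asv1 is listed as an uncultured bacterium with a taxonomy confidence of 0.757, and asv3 stops at the genus with a confidence of 1. In Tannerellaceae the family was in effect 1 sequence, asv2, assigned to Parabacteroides goldsteinii with a confidence of 0.990, which held 162209 reads or 99.9877% of the family. All Muribaculaceae reads carried the genus name Muribaculaceae, which only repeats the family name, and 162212 Tannerellaceae reads carried Parabacteroides. The other 6 ASVs held 62 reads in all. A statement about Tannerellaceae here is therefore a statement about asv2.

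Muribaculaceae and Tannerellaceae made up 100% of all Bacteroidota reads in 11 of the 16 libraries. The mean share of Bacteroidota was 99.9951% in WT healthy, 99.9881% in KO healthy and 99.9975% in KO DSS (n = 4 each). It was 99.2% ± 1.61 (SD, n = 4) in WT DSS, where replicate 1 was at 96.8% and the other 3 libraries at 100%. Without replicate 1 the WT DSS mean was 100%. Outside that library, Bacteroidota in this stool consisted of Muribaculaceae and Tannerellaceae with at most a few other reads.

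**Figure D1:**
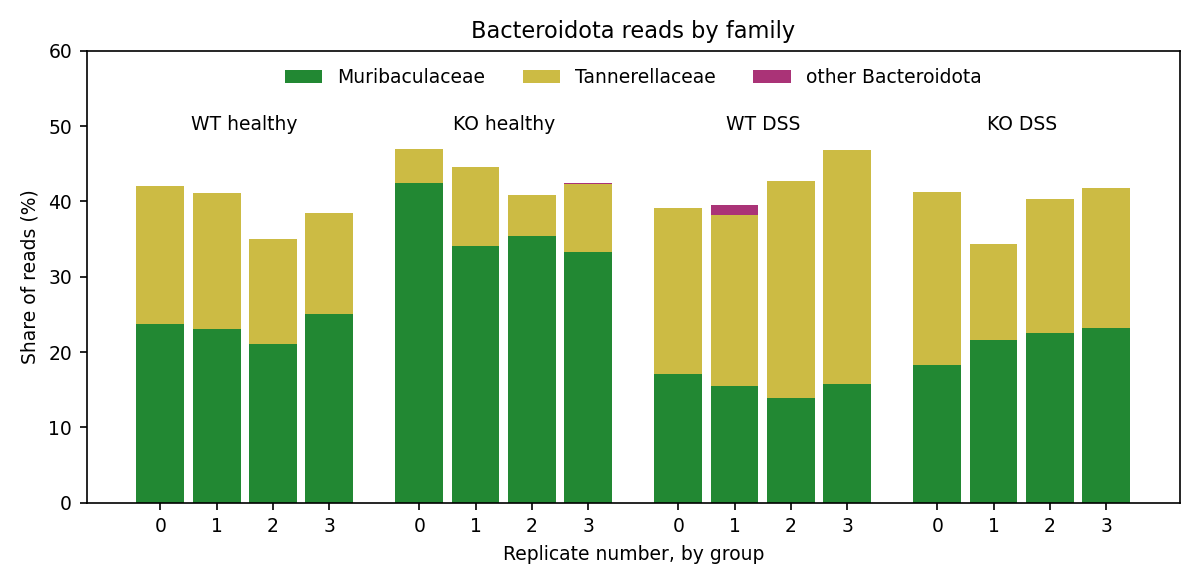
Stacked bars give the percent of all reads in each of the 16 libraries (x axis, by group) that belonged to Muribaculaceae, Tannerellaceae and other Bacteroidota (y axis, percent of reads). The bars are of similar height in all groups, the Muribaculaceae portion is tallest in KO healthy, and other Bacteroidota is visible only in WT DSS replicate 1.

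The combined share of both families overlapped between the groups compared, while the ratio between them did not. Together they held 39.1% ± 3.15 of reads in WT healthy, 43.7% ± 2.69 in KO healthy, 41.7% ± 3.92 in WT DSS and 39.4% ± 3.41 in KO DSS (SD, n = 4 each). The groups overlapped in all 4 comparisons, and the largest difference, KO minus WT healthy, was 4.56 percentage points ± 2.07 (SE). Firmicutes, the other large phylum, held 58.6% ± 3.15, 55.2% ± 2.61, 46.3% ± 4.48 and 52.6% ± 5.49 in the same order. Over libraries, the combined share ran from 34.4% to 47.0%, whereas the ratio of Muribaculaceae to Tannerellaceae reads ran from 0.485 to 9.35.

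In WT healthy stool, Muribaculaceae held 23.7%, 23.1%, 21.0% and 25.1% of reads in replicates 0 to 3, a mean of 23.2% ± 1.68 (SD, n = 4). In KO healthy stool the values were 42.5%, 34.1%, 35.5% and 33.3%, a mean of 36.3% ± 4.19. Every KO healthy library was above every WT healthy library, and replicate 0 was the highest of all 16. In WT DSS stool, Muribaculaceae held 17.2%, 15.5%, 13.9% and 15.8%, a mean of 15.6% ± 1.32. In KO DSS stool it held 18.3%, 21.7%, 22.5% and 23.2%, a mean of 21.4% ± 2.16. The order of the groups was KO healthy, WT healthy, KO DSS, WT DSS, and of these neighbours WT healthy and KO DSS overlapped.

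Tannerellaceae ran the other way. It held 18.2%, 18.0%, 13.9% and 13.4% of reads in WT healthy, a mean of 15.9% ± 2.58 (SD, n = 4), and 4.54%, 10.5%, 5.37% and 9.06% in KO healthy, a mean of 7.36% ± 2.85. The KO healthy libraries were the lowest 4 of the 16. Under DSS it held 22.0%, 22.8%, 28.7% and 31.1% in WT, a mean of 26.1% ± 4.44. In KO DSS it held 22.9%, 12.7%, 17.9% and 18.6%, a mean of 18.0% ± 4.18. The order was WT DSS, KO DSS, WT healthy, KO healthy. WT DSS overlapped KO DSS through KO DSS replicate 0, the highest of its group, and KO DSS overlapped WT healthy.

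**Figure D2:**
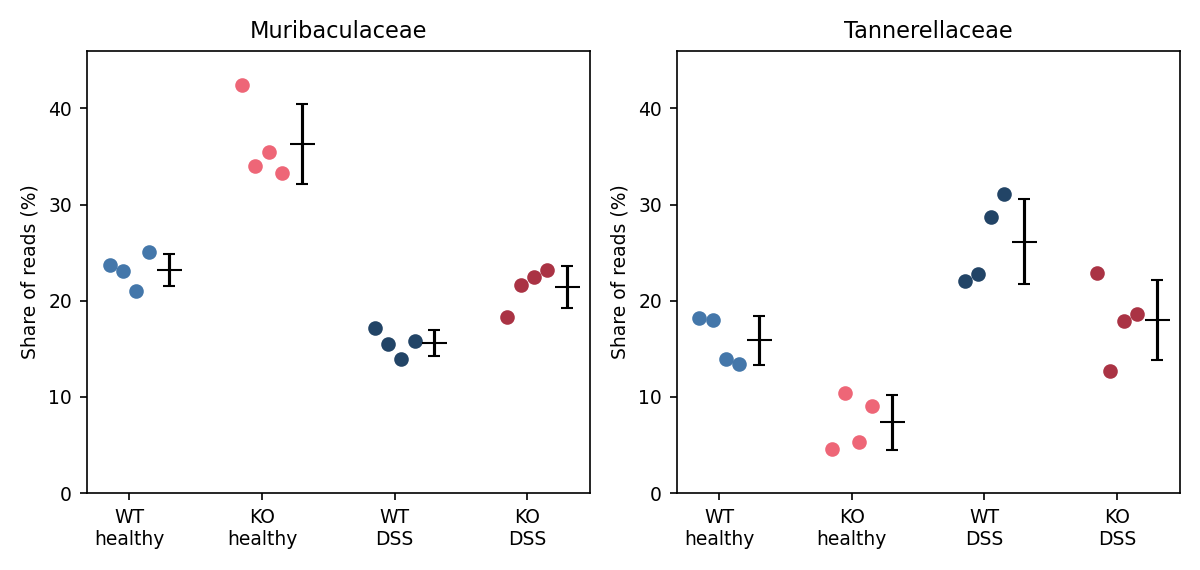
Each point is 1 library and each bar the group mean with its SD (n = 4), for the percent of all reads (y axis) in Muribaculaceae (left) and Tannerellaceae (right) by group (x axis). Muribaculaceae is highest in KO healthy at 36.3% and lowest in WT DSS at 15.6%, and Tannerellaceae is lowest in KO healthy at 7.36% and highest in WT DSS at 26.1%.

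The ratio of Muribaculaceae to Tannerellaceae reads does not depend on the rest of the community or on how libraries are scaled. It was 1.30, 1.28, 1.51 and 1.87 in WT healthy, so Muribaculaceae was the larger family in all 4 libraries. In KO healthy it was 9.35, 3.26, 6.61 and 3.68, the highest 4 values of the study and the group with the widest spread. In WT DSS it was 0.779, 0.680, 0.485 and 0.510, so Tannerellaceae was the larger family in all 4. In KO DSS it was 0.799, 1.70, 1.26 and 1.25. Muribaculaceae exceeded Tannerellaceae in 3 of these 4 libraries, and replicate 0 lay just above the highest WT DSS value.

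On the log2 scale the mean ratio was 0.56 ± 0.25 in WT healthy, 2.38 ± 0.72 in KO healthy, -0.73 ± 0.33 in WT DSS and 0.27 ± 0.45 in KO DSS (SD, n = 4). The ratio was thus ordered KO healthy, WT healthy, KO DSS, WT DSS, and only WT healthy and KO DSS overlapped among neighbours. Within Bacteroidota, Muribaculaceae made up 59.5% ± 4.16 of reads in WT healthy and 83.1% ± 6.60 in KO healthy. The same share was 37.3% ± 5.14 in WT DSS and 54.6% ± 7.67 in KO DSS. These ratios and shares are given as descriptions, with no p-value.

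**Figure D3:**
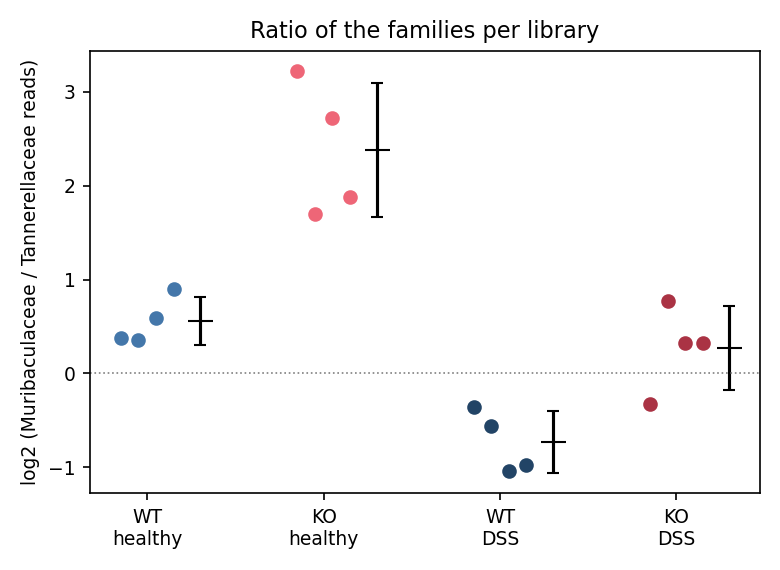
Each point is the log2 ratio of Muribaculaceae to Tannerellaceae reads (y axis) in 1 library, with the group mean and SD (n = 4) by group (x axis). The dotted line marks equal reads. All WT DSS libraries lie below it and all healthy libraries above it, with KO healthy the highest at a mean of 2.38.

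The first comparison set KO against WT in healthy mice. Muribaculaceae was higher in KO, by 13.1 percentage points ± 2.26 (SE, n = 4 and 4), and Tannerellaceae was lower, by a difference of -8.54 ± 1.92. Neither family's groups overlapped, where 19.2% of the 26 families tested did not overlap. The log2 ratio was higher in KO by 1.82 ± 0.38 (SE), a 3.54-fold difference. In edgeR's quasi-likelihood test over the 26 families, Muribaculaceae rose, with 1.33 ± 0.20 (SE) as its log2 fold change and an adjusted p of 8.29e-05. That is 2.51-fold after scaling, whereas its mean share of reads was 1.56-fold higher. Tannerellaceae, at a log2 fold change of -0.47 ± 0.27 beside a 2.16-fold lower mean share, did not pass (edgeR adjusted p = 0.209). So 1 of the 2 families passed, against 11.5% of all 26.

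Which family passed in this comparison changed with the libraries used, and Tannerellaceae passed in addition under 1 scaling. Without KO healthy replicate 0, 1 or 2, the Muribaculaceae fold change was 0.46, 0.53 and 0.31 and did not pass (edgeR adjusted p = 0.181, 0.167 and 0.417), while Tannerellaceae then passed at -1.06, -1.37 and -1.25. Both families thus moved down together in these fits. The family scaling factors (TMM) of the main fit were 0.655 to 0.798 in KO healthy and 0.994 to 1.38 in WT healthy. They were 1.08 to 1.11 in WT DSS and 0.851 to 1.19 in KO DSS. Whether the factors set these changes was not tested. With total counts of the tested families as the only scaling both families passed, Muribaculaceae at 0.65 and Tannerellaceae at -1.11 (edgeR adjusted p = 0.00277 for each). The median of all 26 families then moved from 0.15 to -0.55. Relative to that median, Muribaculaceae was 1.18 to 1.28 higher and Tannerellaceae at -0.62 to -0.52 under the 4 scalings tried. The gap between the families was 1.76 to 1.84 under all 4 scalings, and the difference in log2 ratio was 1.54 to 2.05 with any 1 library left out.

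At the level of single ASVs, counts are over the 3 members found in every library. In healthy mice 1 of the 3 passed with edgeR, 3 with DESeq2 and 0 with limma, against 7.14% of the 308 ASVs tested with edgeR. This was asv1 of Muribaculaceae, which rose by 0.92 ± 0.24 (edgeR adjusted p = 0.0404). Its family partner asv3 had nearly the same fold change, 0.90 ± 0.29, with an edgeR adjusted p of 0.0744. The Parabacteroides goldsteinii variant asv2 was at -0.89 ± 0.33 (edgeR adjusted p = 0.12). The asv1 call was kept in 10 of 17 alternatives, which gave 0.63 to 1.52. It was lost with poscounts scaling, limma, no filter and the replicate block (adjusted p = 0.0581, 0.197, 0.0619 and 0.0849), and without WT healthy replicate 2 or KO healthy replicate 0 or 1 (edgeR adjusted p = 0.0985, 0.0518 and 0.0556).

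The second comparison set KO against WT under DSS. Muribaculaceae held 5.81 percentage points ± 1.27 (SE) more of the reads in KO than in WT and the groups did not overlap, as was the case for 26.9% of the 26 families. Tannerellaceae differed by -8.12 ± 3.05 and the groups overlapped. The log2 ratio was higher in KO by 1.01 ± 0.28 (SE), a 2.01-fold difference, with no overlap.

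In the test over all families, neither member passed under DSS: Muribaculaceae was at 0.49 ± 0.20 (edgeR adjusted p = 0.0989) and Tannerellaceae at -0.50 ± 0.27 (edgeR adjusted p = 0.201). Across all 26 families 11.5% passed. At an unadjusted edgeR p under 0.05, 1 of the 2 families was counted, and DESeq2 and limma on centred log-ratio values called 0. Tannerellaceae passed without KO DSS replicate 0 (-0.92, edgeR adjusted p = 0.0448), the library with the lowest ratio of its group. Without WT DSS replicate 1 the fold changes were 0.38 for Muribaculaceae and -0.68 for Tannerellaceae, and neither passed. The Muribaculaceae value was lower in all 8 fits that left out 1 library, down to 0.091 without KO DSS replicate 1, 0.24 without WT DSS replicate 2 and 0.26 without KO DSS replicate 0, and it was 0.091 with a filter of 20 reads. Tannerellaceae was at -0.77 without WT DSS replicate 0 and at -0.83 with that filter.

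Of the 3 common member ASVs, 0 passed between KO and WT under DSS with edgeR, against 14.9% of the 308 ASVs, and DESeq2 and limma also called 0. At an unadjusted edgeR p under 0.05 there was 1, asv2, at -0.80 ± 0.33 (adjusted p = 0.114). Neither Muribaculaceae variant passed, asv1 at 0.23 and asv3 at 0.11. With total counts of the tested ASVs as the only scaling, they were at 0.55 and 0.44 and did not pass either. The tested ASVs held only 75.6% of reads in KO DSS replicate 1 and 82.3% in WT DSS replicate 1. These values are therefore not changes in the share of all reads.

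The third comparison set DSS against healthy in WT mice. Tannerellaceae rose and Muribaculaceae held a smaller share: the differences were 10.3 percentage points ± 2.57 (SE) and -7.63 ± 1.07, and neither family's groups overlapped, against 30.8% of the 26 families. The log2 ratio changed by -1.29 ± 0.21 (SE), which is 2.45-fold lower, and the larger family was Muribaculaceae in 4 of 4 healthy libraries and Tannerellaceae in 4 of 4 DSS libraries. In the fit, Tannerellaceae rose by 0.89 ± 0.27 on the log2 scale (edgeR adjusted p = 0.0236), and Muribaculaceae, at -0.39 ± 0.20, did not pass (edgeR adjusted p = 0.142). Thus 1 of the 2 families passed, against 26.9% of all 26.

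Among the tested ASVs, 17.2% of 308 passed, and of the 3 common members 1 did. That was asv2, which rose by 1.25 ± 0.33 (edgeR adjusted p = 0.0167), while asv1 was at -0.03 and asv3 at -0.06. The mean shares of asv1 and asv3 were still lower, 11.9% and 3.70% in WT DSS against 17.6% and 5.63% in WT healthy. With total counts of the tested ASVs as the only scaling, their fold changes were -0.53 and -0.56 (edgeR adjusted p = 0.0524 and 0.0909), so these values moved with the scaling. The asv2 call was kept in 13 of 17 alternatives and lost with total counts, no filter and the replicate block (edgeR adjusted p = 0.0541, 0.0616 and 0.113) and without WT healthy replicate 2 (edgeR adjusted p = 0.0514).

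The family call for Tannerellaceae in WT mice was lost with limma, no filter, a filter of 20 reads and the replicate block (adjusted p = 0.105, 0.179, 0.0901 and 0.103). It was also lost without WT DSS replicate 2 (0.83, edgeR adjusted p = 0.0694) or replicate 3 (0.82, edgeR adjusted p = 0.056), the libraries with most Tannerellaceae. The Muribaculaceae genus, which holds the same reads, was at 0.03 in the genus fit of this comparison, against -0.39 in the family fit. With the same reads, the fits differ in the scaling factors and in the features that share the estimate of the spread. They also differ in the library totals, which cover only the features tested. The TMM factors for families were 0.994 to 1.38 in WT healthy and 1.08 to 1.11 in WT DSS. For genera they were 1.07 to 1.49 and 0.698 to 1.21. Without WT DSS replicate 1, both families passed, Tannerellaceae at 0.85 and Muribaculaceae at -0.50 (edgeR adjusted p = 0.0413 for each).

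The fourth comparison set DSS against healthy in KO mice, where both families moved. The share of Muribaculaceae changed by -14.9 percentage points ± 2.36 (SE) and that of Tannerellaceae by 10.7 ± 2.53. The groups did not overlap for either, against 38.5% of the 26 families. The log2 ratio changed by -2.11 ± 0.42 (SE), which is 4.32-fold lower. Muribaculaceae fell, at a log2 fold change of -1.23 ± 0.20 (edgeR adjusted p = 7.5e-05), and Tannerellaceae rose by 0.86 ± 0.27 (edgeR adjusted p = 0.0167). Both families passed, but so did 50.0% of all 26, and the median fold change over all families was 0.76. Tannerellaceae was thus only 0.10 above the median family, and -0.01 to 0.10 from it under the 4 scalings, whereas Muribaculaceae was at -2.10 to -1.99 from it.

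All 3 common member ASVs passed in KO mice, against 28.9% of 308 ASVs, where DESeq2 called 2 of them and limma 1. Both common Muribaculaceae variants fell, asv1 at -0.72 ± 0.24 and asv3 at -0.85 ± 0.29 (edgeR adjusted p = 0.0378 for each). Parabacteroides goldsteinii asv2 rose by 1.34 ± 0.33 (edgeR adjusted p = 0.00824). The asv2 call was kept in 16 of 17 alternatives (lost with no filter, edgeR adjusted p = 0.0879), but those of asv1 and asv3 in 6 and 7. Both were lost with poscounts scaling, limma, no filter, the replicate block and without any 1 of KO healthy replicates 0, 1 and 2 or KO DSS replicates 1, 2 and 3, and asv1 also with DESeq2. Their fold changes went down in size to -0.21 and -0.34, both with limma (adjusted p = 0.77 and 0.616).

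The Muribaculaceae family call in KO mice was lost without KO healthy replicate 2 (-0.59, edgeR adjusted p = 0.0643), and was kept at -0.75 and -0.81 without replicate 0 or 1 and at -0.76 with total counts. The genus fit gave -0.74 for the same reads (edgeR adjusted p = 0.00571). The Tannerellaceae call was lost without KO healthy replicate 3, KO DSS replicate 0 or KO DSS replicate 3, at 0.69, 0.74 and 0.67, and with limma, a filter of 20 reads, a fit of the compared groups alone and the replicate block, at 0.43, 0.56, 0.62 and 0.88. It was kept at 1.37 without KO healthy replicate 1 and at 1.29 with total counts.

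The last comparison asked whether the genotype difference itself changed with DSS. For Muribaculaceae the KO to WT fold change was smaller under DSS than in healthy mice, with a log2 difference of -0.84 ± 0.28 (edgeR adjusted p = 0.0474). For Tannerellaceae it was -0.03 ± 0.38 (edgeR adjusted p = 0.937). In percentage points the genotype difference changed from healthy to DSS by -7.29 ± 2.59 (SE) for Muribaculaceae and 0.418 ± 3.60 for Tannerellaceae. One of the 2 families passed, against 15.4% of 26, and of the 3 common member ASVs 0 passed with edgeR (0 also at an unadjusted p under 0.05, with DESeq2 and with limma), against 5.52% of 308. The interaction in the log2 ratio was -0.82 ± 0.47 (SE).

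The Muribaculaceae interaction was near the threshold. It was at -0.05, -0.12 and 0.10 without KO healthy replicate 0, 1 or 2, and at -1.04 to -0.86 in the other 13 fits that left out 1 library, of which 6 passed. One of these was the fit without WT DSS replicate 1 (-0.89, edgeR adjusted p = 0.0103), which gave -0.22 for Tannerellaceae. It did not pass under the other scalings, filters, tools or the replicate block, where it was at -0.26 with total counts, -0.43 with no filter and -1.12 to -0.75 otherwise. In the genus fit the same reads gave -0.78 (edgeR adjusted p = 0.142). The difference of the log2 ratios kept its sign, between -1.04 and -0.54, with any 1 library left out.

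**Figure D4:**
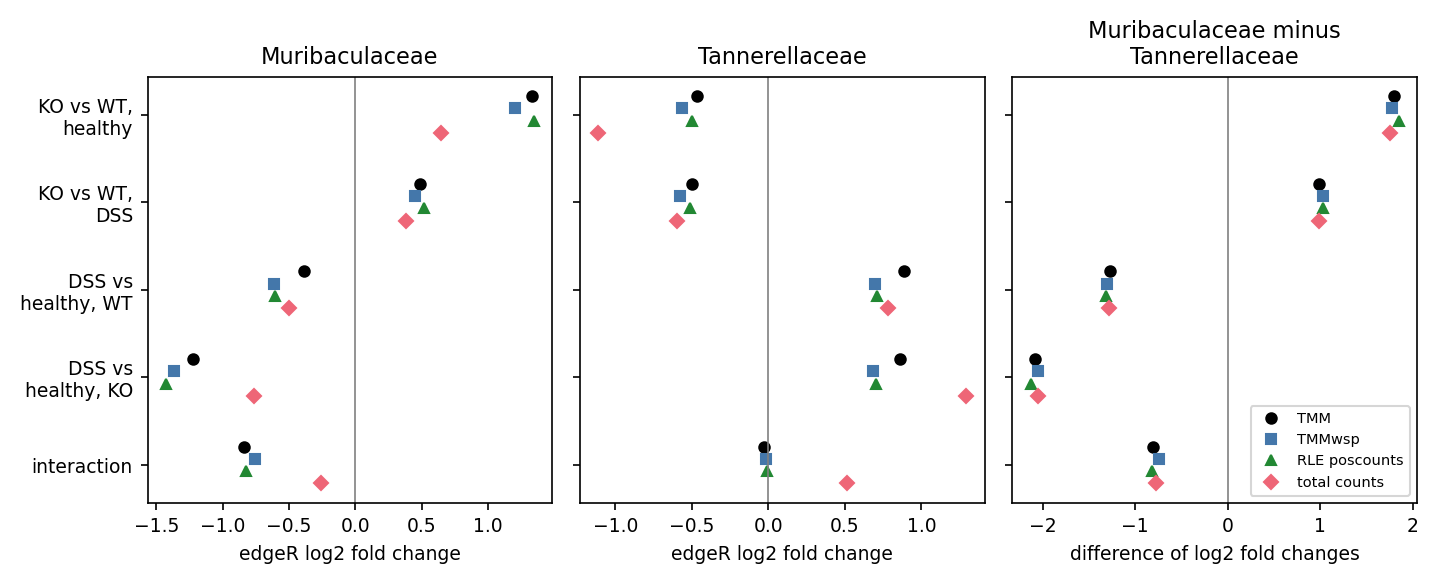
Points give log2 fold changes from edgeR (horizontal axis) for Muribaculaceae, Tannerellaceae and the difference between them, under 4 ways of scaling libraries, in each of the 5 comparisons. Each family's value shifts with the scaling, as from 1.33 to 0.65 for Muribaculaceae between healthy KO and WT, while the difference stays within 1.76 to 1.84 there.

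The main Muribaculaceae variants kept an almost fixed ratio to each other. Reads of asv1 per read of asv3 were 3.17, 3.13, 3.12 and 3.07 in WT healthy and 3.23, 3.08, 3.18 and 3.20 in KO healthy. They were 3.21, 3.15, 3.16 and 3.32 in WT DSS, and 3.53, 3.47, 3.46 and 3.45 in KO DSS. The 4 KO DSS libraries were above all other 12, and the remaining groups overlapped one another. Group means were 3.12 ± 0.0393, 3.17 ± 0.0659, 3.21 ± 0.0811 and 3.48 ± 0.0393 (SD, n = 4).

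Within groups the spread of this ratio was near counting noise: chi-square per degree of freedom was 0.453, 1.52, 1.10 and 0.285. Over all 16 libraries it was 4.96. Pairs of replicate libraries compared over their more abundant ASVs gave 28.0 to 141. That is an unlike measure, of whole communities, and no other pair of ASVs was computed. The KO minus WT difference under DSS was 0.264 ± 0.0451 (SE), or 1.08-fold, and the DSS minus healthy difference in KO was 0.303 ± 0.0383. The position of KO DSS was noticed after the values were seen and was not tested. The log2 shares of asv1 and asv3 had a Pearson correlation of 0.991 over the 16 libraries, and each was at -0.93 with asv2. These correlations are descriptions, and the points share the library totals and the 4 groups.

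**Figure D5:**
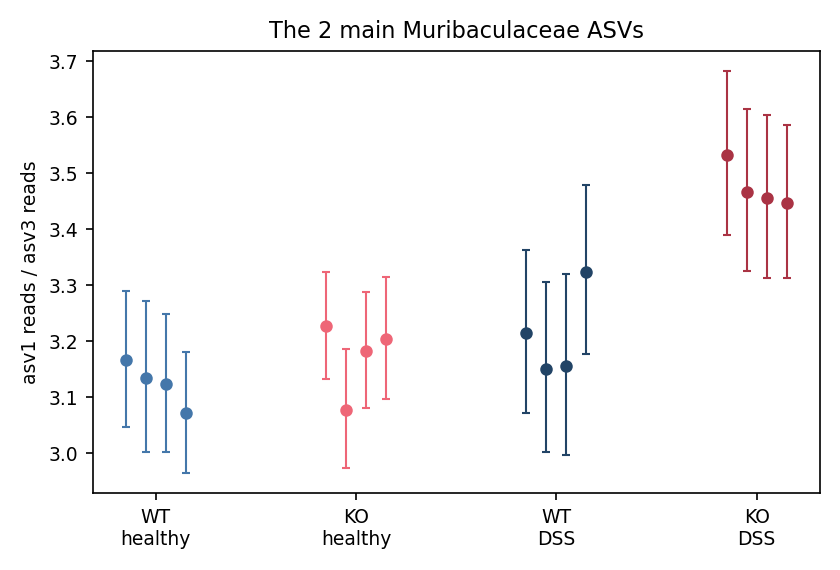
Each point is the ratio of asv1 to asv3 reads (y axis, linear, not starting at 0) in 1 library by group (x axis), with its 95% Wilson interval from read counts. The KO DSS libraries lie at 3.45 to 3.53 and the other 12 at 3.07 to 3.32, while the intervals of some libraries overlap between these sets.

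The rare members were each found in few libraries. The third Muribaculaceae variant, asv429, had 42 reads, all in DSS libraries: 9 in WT DSS replicate 0, 6 in replicate 1, 6 in KO DSS replicate 1, 1 in replicate 2 and 20 in replicate 3. None of the 8 healthy libraries held a read, which allows a share of up to 0.00609% in the shallowest library. Its mean share under DSS was 1.24 times a floor of 3 reads per healthy library in WT and 2.07 times in KO. These values do not bound a difference between groups. Only 2 of 4 WT DSS and 3 of 4 KO DSS libraries held reads, and KO DSS replicate 3 alone held 20. The variant reached the filter for testing only through DSS libraries, so no test of DSS against healthy is given for it.

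Beside asv2, the Tannerellaceae variants held 20 reads and each came from 1 library. There were 7 reads of asv979 in KO healthy replicate 3, and 2 of asv1268 in KO healthy replicate 1. WT DSS replicate 3 alone held 5 of asv1108, 3 of asv1221, the only other variant named Parabacteroides goldsteinii, and 3 of asv1248. At these counts no difference between groups was detectable.

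The other Bacteroidota came to 48 ASVs in 14 families with 763 reads, of which WT DSS replicate 1 held 746 reads and 47 ASVs. The families with most reads were Chitinophagaceae with 25 ASVs and 434 reads, SJA-28 with 112 reads and Flavobacteriaceae with 84, all in that library only. Chitinophagaceae and Flavobacteriaceae are families best known from soil and water. The exception was a single ASV of Dysgonomonadaceae with 17 reads, found in WT healthy replicate 1 (4), KO healthy replicate 1 (5), KO healthy replicate 3 (6) and KO DSS replicate 1 (2). None of these families reached 5 reads in 4 libraries, the filter for testing, so Muribaculaceae and Tannerellaceae were the only Bacteroidota among the 26 families tested.

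Among the other 25 tested families, those whose log2 share followed Muribaculaceae most closely over the 16 libraries were Eggerthellaceae (Pearson r = 0.78), Lactobacillaceae (0.70) and Butyricicoccaceae (0.65). After each group's mean was taken off, these were -0.04, -0.29 and 0.50. The families most like Tannerellaceae were Clostridia_UCG-014 (0.88), RF39 (0.86) and Erysipelatoclostridiaceae (0.81), or 0.45, 0.71 and 0.69 as deviations from group means. Muribaculaceae and Tannerellaceae were each other's least alike family over all libraries, at -0.93. As deviations from group means they were at -0.57, and Anaerovoracaceae was further from Muribaculaceae, at -0.59. These are descriptions over 16 libraries that share 4 groups and shares that sum to the whole.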

How the data were processed

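Per the labels' protocols, a PowerSoil Pro kit gave the stool DNA, whose V3 to V4 amplicons were sequenced as paired reads. Of the upstream tools, cutadapt is named in the submitters' processing notes. How reads were denoised and which classifier and database assigned taxonomy is not given in the sources used here. The authors deposited read counts per ASV and library, whole numbers that were not normalized, and a taxonomy table whose confidence is a fraction deposited per ASV.

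Counts were summed by family (26 of 239 labels tested) and genus (66 of 340), and 308 of 1330 ASVs were tested, each holding 5 or more reads in 4 or more libraries. The tested ASVs held 75.6% of reads in KO DSS replicate 1 and 82.3% in WT DSS replicate 1. In every other library they held 93.7% or more. Library totals in each edgeR fit, also with total-count scaling, were sums over the features that passed its filter, not over all reads. All 16 libraries entered 1 fit per rank in edgeR 4.0.16 (TMM factors, quasi-likelihood test, Benjamini-Hochberg adjusted p under 0.05 over all features of the rank), with R 4.3.3. This step was also tested on simulated data. Standard errors of fold changes come from the test's F statistic. Shares, ratios and Wilson intervals were computed from counts with scipy 1.17.1. Likeness used log2(percent + 0.01). Named items were both families, their ASVs, the 3 families most like each and the other Bacteroidota families with most reads.

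Alternatives were TMMwsp, poscounts and total-count scaling, DESeq2 1.42.0, a filter of 20 reads or none, a fit of the compared groups alone, limma 3.58.1 after a centred log-ratio transform (pseudocount 0.5), the replicate number as a block, rarefaction to 49253 reads and each library left out. Same-numbered samples did not deviate together in every pair (correlations of -0.36 to 0.23 over the 4 comparisons), so the numbers were not used as pairs. Leaving out libraries for the difference in log2 ratio was added after seeing the data. The members and lists were chosen with earlier results of these data known.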

Additional observations from a re-analysis of the deposited data

Results flagged for a closer look

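In 3 of the 20 groups of 4 libraries checked for a sample far from the others, 1 library stood apart. Chance gives about 1 in 20, but that rate does not apply here, because with 3 libraries at exactly 100% any other read in the remaining library sets it apart. All 3 concern the share of Bacteroidota reads held by Muribaculaceae and Tannerellaceae, in groups whose other 3 libraries were at 100%. WT healthy replicate 1 was at 99.9802%, through 4 reads of Dysgonomonadaceae. KO DSS replicate 1 was at 99.99%, through 2 reads of the same family. WT DSS replicate 1 was at 96.8%, through 746 reads in 47 ASVs.

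The genotype difference of Muribaculaceae differed between healthy and DSS mice, with an edgeR interaction of -0.84 on the log2 scale (adjusted p = 0.0474), and this call was kept under 6 of 24 alternatives.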

How the results depend on the processing

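Of the results for both families, 230 recomputed values kept their direction and side of the threshold (ratios and shares: stayed within 1 SD), 34 no longer passed, 9 newly passed and 7 changed sign. The 230 pool fits with ratios and shares, so they do not measure how stable the fits were. Muribaculaceae calls were kept in 14 of 17 alternatives (KO against WT, healthy), 16 of 17 (DSS against healthy, KO) and 6 of 24 (interaction). Those of Tannerellaceae were kept in 11 of 17 (DSS against healthy, WT) and 10 of 17 (KO). All log2 ratios, their differences and the shares of Bacteroidota stayed within 1 SD. Leaving out 1 of 4 libraries cannot move a group mean by 1 SD, so those recomputed values could not have failed this rule.

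The edgeR log2 fold changes of the families changed as follows, and where no construction shows the cause, the cause was not tested. The Muribaculaceae interaction no longer passed at -0.75 (TMMwsp), -0.83 (poscounts), -0.26 (total counts), -0.83 (DESeq2), -1.01 (limma), -0.43 (no filter) and -1.12 (filter of 20 reads). Tannerellaceae no longer passed in DSS against healthy WT at 0.63 (limma), 0.72 (no filter) and 0.82 (filter of 20), nor in KO at 0.43 (limma), 0.56 (filter of 20) and 0.62 (only the groups compared). Muribaculaceae newly passed in DSS against healthy WT at -0.50 (total counts), -0.60 (DESeq2) and -0.69 (only the groups compared), and Tannerellaceae in healthy KO against WT at -1.11 (total counts). The Tannerellaceae interaction changed sign at 0.51 (total counts) and 0.33 (no filter).

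With the replicate number as a block, Tannerellaceae no longer passed in DSS against healthy WT (0.90) or KO (0.88), nor did the Muribaculaceae interaction (-0.85), and no other family call changed; the ASV calls it ended were asv1 in healthy KO against WT (0.92), asv2 in DSS against healthy WT (1.27) and asv1 and asv3 in KO (-0.71 and -0.84). The block is a hint only: 0, 0, 1 and 2 samples of 4 correlated best with their own number, in DSS against healthy KO and WT and in KO against WT under DSS and healthy.

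Sign changes at other ranks were all of results that did not pass as reported; of the changed values, only the genus with total counts passed (adjusted p = 0.00733). The Muribaculaceae genus was at -0.25 in KO against WT under DSS (TMMwsp), and at -0.52 (total counts) and -0.22 (no filter) in DSS against healthy WT. The Parabacteroides interaction was at -0.80 (TMMwsp), -0.13 (poscounts, DESeq2 and filter of 20) and -0.61 (limma). In DSS against healthy WT, asv1 was at 0.045, 0.17, 0.17, 0.70 and 0.12, and asv3 at 0.0083, 0.14, 0.14, 0.66 and 0.081, under TMMwsp, poscounts, DESeq2, limma and only the groups compared. In KO against WT under DSS asv3 was at -0.043 (limma), and the asv2 interaction at -0.12 (limma) and -0.13 (no filter).

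With 1 library left out, Muribaculaceae ranged over 0.31 to 1.38 (KO against WT, healthy), 0.091 to 0.47 (the same under DSS), -0.50 to -0.21 (DSS against healthy, WT), -1.47 to -0.59 (KO) and -1.04 to 0.10 (interaction). Tannerellaceae ranged over -1.37 to -0.35 (KO against WT, healthy), -0.92 to -0.43 (DSS), 0.82 to 1.08 (DSS against healthy, WT), 0.67 to 1.37 (KO) and -0.27 to 0.76 (interaction). The Muribaculaceae genus ranged over -0.22 to 0.13, asv1 over -0.15 to 0.32 and asv3 over -0.19 to 0.29 (all DSS against healthy, WT), and the interactions of Parabacteroides over -0.26 to 0.38 and of asv2 over -0.43 to 0.47.

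Over these settings the families past the threshold numbered 2 to 8, 0 to 6, 4 to 11, 8 to 16 and 0 to 5, and the ASVs 3 to 49, 22 to 66, 27 to 85, 51 to 113 and 4 to 47, for KO against WT healthy, the same under DSS, DSS against healthy in WT, in KO, and the interaction. Depth limits only the rare members, which held 62 reads.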
